A study of Ambystoma mexicanum with 44 samples.

Results

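PTX3, ABI3BP, MGP, CAPSL, PEBP4 and PTGES are 6 genes that were higher in uninjured flank skin than in uninjured limb skin of the axolotl (Ambystoma mexicanum). They were chosen by their gene symbols and by that difference, so the values of the day 0 arrays chose the members and are given here as a description, without a test. The 6 genes are measured by 8 of the 20035 probe sets tested, and 8639 genes are named on the array in all. Where a gene has several probe sets, the brightest on average is used.

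The samples were aquatic axolotls, kept individually, whose epidermis was taken with the cells that adhered to it. In the flank series a biopsy punch made a full thickness wound. In the denervated limb series the forelimb was amputated above the elbow, the humerus was trimmed and the brachial nerves were cut. In the innervated limb series the same amputation was made with the nerves left in place. Flank and innervated limb were sampled uninjured (day 0) and on days 1, 3 and 7 after injury, and the denervated limb on days 1, 3 and 7, which gives 11 groups of 4 arrays. Each array held RNA of 1 animal, from 2 harvested samples pooled. The labels give no age, sex, strain or hybridisation batch. The comparisons address how the response of skin to a wound that only heals differs from that of a limb that regrows, and what part of it needs the nerve.

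All values are deposited log2 expression levels, so a difference of 1 is a doubling. Differences of group means are given with their standard error (SE) from a limma fit over all 44 arrays, n = 4 per group. A gene was called, and is said to have risen or fallen or to be higher or lower by test, when its Benjamini-Hochberg adjusted p over all 20035 probe sets was under 0.05. At an unadjusted p under 0.05, between 1329 and 4120 of these probe sets passed in each comparison between series. Groups that do not overlap are described only, since the share of all probe sets without overlap was not counted. Array medians lay between 5.61 and 5.72. Epidermal markers were high at day 0 in both regions: the keratin KRT8 averaged 14.19 in flank and 14.25 in innervated limb, and the adhesion molecule EPCAM 12.81 and 12.85. Of 17 epidermal genes measured, 1 was called between the regions at day 0 (ITGA6, lower in flank), and the mean of the list, as a deviation from each gene's mean over all arrays, was -0.39 in flank and -0.20 in innervated limb.

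The 6 genes do different work in mammals. PTX3 is a long pentraxin, a soluble pattern recognition protein of innate immunity that binds microbes and complement. ABI3BP is a protein of the extracellular matrix, and MGP is the matrix Gla protein, a vitamin K-dependent inhibitor of calcification made by fibroblasts, cartilage and vessel wall. PTGES makes prostaglandin E2, an early mediator of inflammation, from the product of the cyclooxygenases. PEBP4 belongs to the phosphatidylethanolamine-binding proteins, a family whose founder PEBP1 restrains RAF signalling, and CAPSL is a calcyphosine-like protein with calcium-binding EF hands.

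At day 0 the 6 genes stood between 1.58 and 3.64 log2 units higher in flank than in limb, where 4.35% of all probe sets were called in either direction. PTX3 measured 9.96, 12.00, 12.77 and 12.42 in the 4 flank arrays, against 6.96, 7.65, 9.22 and 8.74 in the limb arrays, a difference of 3.64 ± 0.86. ABI3BP measured 6.87, 9.07, 10.05 and 9.81 in flank, against 5.08, 5.14, 5.91 and 6.54 in limb, a difference of 3.28 ± 0.55. Both genes were higher in every flank array than in any limb array. MGP measured 8.43, 10.81, 11.50 and 10.54 in flank, against 8.28, 8.45, 8.94 and 9.31 in limb, a difference of 1.58 ± 0.74. Its groups overlapped, because the first flank array lay below 3 of the limb arrays, and it was the least separated of the 6.

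CAPSL measured 6.36, 9.05, 8.67 and 8.62 in uninjured flank, against 4.76, 4.40, 4.60 and 4.50 in uninjured limb, a difference of 3.61 ± 0.30. PEBP4 measured 6.98, 9.28, 8.86 and 8.70 in flank, against 5.43, 5.47, 5.84 and 5.76 in limb, a difference of 2.83 ± 0.26. PTGES measured 8.32, 9.75, 11.20 and 10.23 in flank, against 5.89, 5.84, 7.42 and 6.92 in limb, a difference of 3.36 ± 0.36. These 3 genes did not overlap between the regions. Ranked by the day 0 difference among the 20035 probe sets, PTX3 was in place 33, CAPSL 35, PTGES 39, ABI3BP 41, PEBP4 51 and MGP 142. A second probe set of PEBP4 was weaker and averaged 6.17 in flank and 5.27 in limb at day 0. The second probe set of CAPSL lay near 4.33 in flank and 4.34 in limb and did not show the difference, so the CAPSL result rests on 1 of 2 probe sets.

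**Figure D1:**
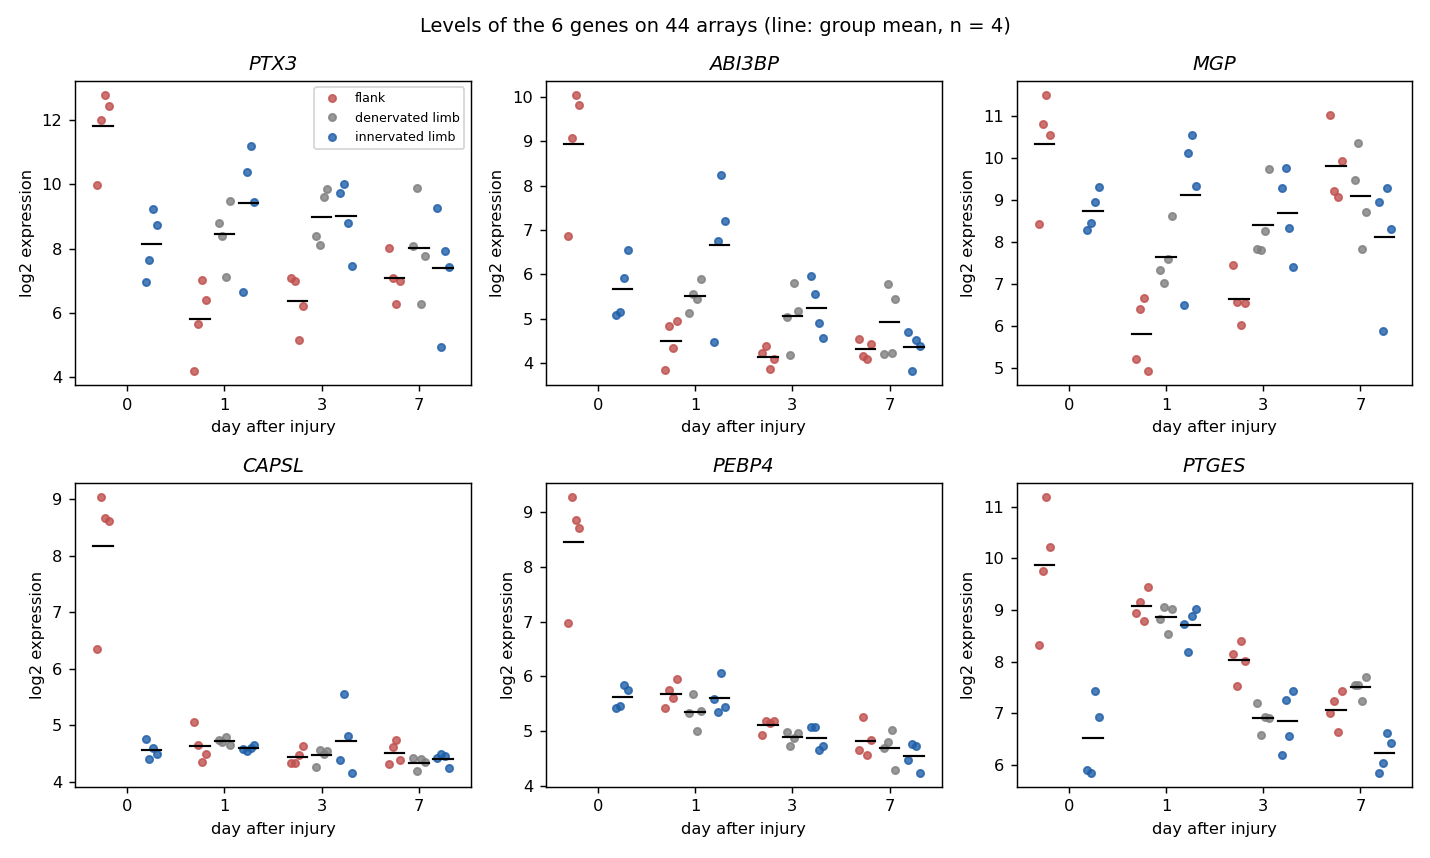
Log2 expression (vertical axis) of the 6 genes on each of the 44 arrays, by day after injury, with flank in red, denervated limb in grey and innervated limb in blue. Points are arrays, black lines are group means and the days are evenly spaced. CAPSL and PEBP4 are high in uninjured flank alone, whereas PTGES is near 9 in all 3 series on day 1.

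One uninjured flank array, replicate 1, was the lowest of its group for all 6 genes. Its mean over 31 other dermal matrix and fibroblast genes, as a deviation from each gene's mean over all arrays, was -0.85, against 0.05 to 0.62 in the other 3 flank arrays. In the uninjured limb arrays this list mean lay between -0.47 and -0.02. The group averages were 0.05 in flank and -0.20 in limb. Skeletal muscle genes also moved with region at day 0. The mean over 15 of them was between 0.41 and 3.65 in the flank arrays, replicate 1 the lowest, against -1.74 to 1.12 in the limb arrays, and 3 of the 15 (CASQ1, TNNC2 and CKM) were called higher in flank, a count that ran between 0 and 8 with single arrays left out, highest without flank replicate 1. Of the dermal list, COL1A2 (1.12 ± 0.28) and POSTN (2.47 ± 0.64) were higher in flank at day 0 and MFAP2 was lower (-0.69 ± 0.18). In bulk tissue, fewer cells of a type and less RNA per cell cannot be told apart. The part of dermal or muscle tissue in the day 0 difference was not tested.

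One day after injury, PTX3, ABI3BP and MGP, the pentraxin and both matrix genes, were lower in flank than in innervated limb, the opposite of their day 0 order. These were 3 of the 6 members, with none higher, in a comparison where 4.93% of all probe sets were called. PTX3 measured 4.19, 5.65, 7.01 and 6.41 in flank, against 6.64, 10.36, 11.17 and 9.43 in innervated limb, a difference of -3.58 ± 0.86 (adjusted p = 0.0097). ABI3BP measured 3.84, 4.83, 4.33 and 4.95 in flank, against 4.47, 6.74, 8.23 and 7.20 in innervated limb, a difference of -2.17 ± 0.55 (adjusted p = 0.015). MGP measured 5.22, 6.41, 6.66 and 4.92 in flank, against 6.49, 10.12, 10.54 and 9.34 in innervated limb, a difference of -3.32 ± 0.74 (adjusted p = 0.0047). For each gene 3 of the 4 limb arrays stood above every flank array, and limb replicate 1 fell among the flank values.

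The day 1 calls of these 3 genes rest on the spread estimated over all 44 arrays. With the spread of the 8 arrays compared alone, the adjusted p was 0.18 for PTX3, 0.25 for ABI3BP and 0.15 for MGP. Without innervated limb replicate 3, the adjusted p of PTX3 was 0.062 and that of ABI3BP 0.10. ABI3BP had 0.055 without replicate 4 and 0.053 when the 3 arrays richest in muscle RNA were left out. Those were innervated limb replicate 4 of day 1, denervated limb replicate 3 of day 3 and uninjured flank replicate 4. Only the first is in this comparison, so both settings drop the same array from it, and both give -1.99. Dermal genes moved the same way. Of the 31 other dermal genes, 13 were lower and 0 higher in flank than in innervated limb on day 1, with a median difference of -0.71, against 0.03 over all named genes. The count of 13 ran between 5 and 15 with single arrays left out, lowest without innervated limb replicate 3. Among them LUM, the keratan sulfate proteoglycan lumican, differed by -3.38 ± 0.64 and DCN, decorin, by -0.81 ± 0.16. COL3A1, a fibrillar collagen chain, differed by -1.06 ± 0.23, and TNXB, tenascin-X, by -1.77 ± 0.38. The list mean lay between -0.82 and -0.47 in the flank arrays, against -0.61 in innervated limb replicate 1 and 0.49 to 1.08 in the other 3 limb arrays. The muscle list ran between -0.04 and 1.99 in flank, against -0.57 to 4.01 in innervated limb, and the highest 2 limb values were those of replicates 3 and 4. Of the 15 muscle genes, 0 were called by limma, with 1 at an unadjusted p under 0.05. Their part in the result was not tested.

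Against the denervated limb on day 1, no member was called by limma (2.33% of probe sets were). At an unadjusted p under 0.05 there were 2 of 6 members, against 3128 of 20035 probe sets. As a description, PTX3, ABI3BP and MGP were lower in every flank array than in any limb array. The denervated limb arrays measured 8.79, 8.38, 7.12 and 9.47 for PTX3, and the difference was -2.63 ± 0.86 (adjusted p = 0.097). They measured 5.13, 5.56, 5.44 and 5.89 for ABI3BP, a difference of -1.02 ± 0.55 (adjusted p = 0.38). They measured 7.32, 7.03, 7.60 and 8.61 for MGP, a difference of -1.84 ± 0.74 (adjusted p = 0.20). Of the dermal list, DCN, LUM and FBLN5 were lower in flank here, 3 of 31 (1 to 3 with single arrays left out). The flank arrays are the same in both comparisons, which therefore share their error.

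**Figure D2:**
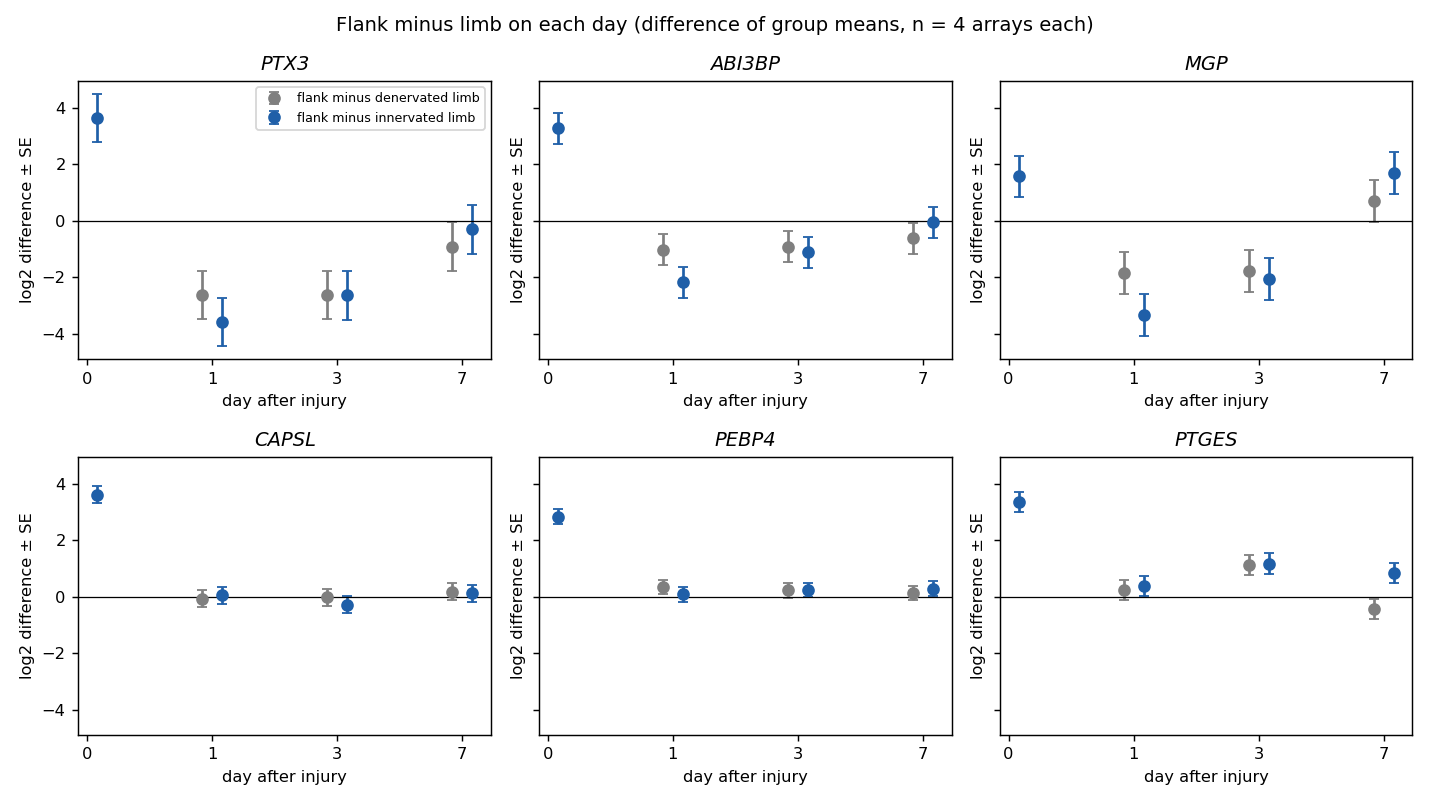
Difference in log2 expression between flank and limb (vertical axis, group means ± SE, n = 4 arrays each) by day after injury (evenly spaced), against denervated limb in grey and innervated limb in blue. The day 0 points chose the genes. PTX3, ABI3BP and MGP lie above 0 at day 0 and below it on day 1 (-3.58, -2.17 and -3.32 against innervated limb), and MGP is above 0 again on day 7.

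On day 1 PTX3, ABI3BP and MGP differed more from day 0 in flank than in innervated limb. Set against day 0, which is again a description, flank PTX3 was lower by a difference of -5.97 ± 0.86 on day 1, ABI3BP by -4.46 ± 0.55 and MGP by -4.52 ± 0.74. In innervated limb the day 1 differences from day 0 were 1.26, 0.99 and 0.38, with the same errors. Ranked by the fall in flank among all probe sets, PTX3 was in place 8, MGP in place 13 and ABI3BP in place 14. The choice of genes favours such places, falls in flank and rises in limb, since it used the same day 0 arrays. Which region turned the order was therefore not tested.

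On day 3, PTX3 and ABI3BP did not overlap between flank and innervated limb, but neither was called, where 6.24% of probe sets were. PTX3 measured 7.07, 6.99, 5.16 and 6.22 in flank, against 9.73, 10.01, 8.79 and 7.47 in innervated limb (-2.64 ± 0.86, adjusted p = 0.059). ABI3BP lay between 3.86 and 4.37 in flank, against 4.57 to 5.96 in innervated limb (-1.11 ± 0.55, adjusted p = 0.27), and MGP between 6.01 and 7.44, against 7.41 to 9.76 (-2.06 ± 0.74, adjusted p = 0.095). With the spread of the 8 arrays compared alone, all 3 were called, at 0.032, 0.047 and 0.041. Against the denervated limb, where 6.33% of probe sets were called, PTX3 and MGP did not overlap (-2.63 ± 0.86, adjusted p = 0.061, and -1.77 ± 0.74, adjusted p = 0.17). Of the 31 other dermal genes, 6 were lower in flank than in innervated limb on day 3 and 0 higher, and the count of lower genes ran between 2 and 6 with single arrays left out.

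By day 7, MGP had returned in flank whereas PTX3 and ABI3BP had not. MGP measured 5.22, 6.41, 6.66 and 4.92 in flank on day 1, then 7.44, 6.56, 6.01 and 6.54 on day 3 and 11.01, 9.21, 9.06 and 9.93 on day 7. It rose by 4.00 ± 0.74 between days 1 and 7 (adjusted p = 3.7e-05), with every day 7 array above every day 1 array, and ended -0.52 ± 0.74 from its day 0 level. Between the same days it differed by 1.45 ± 0.74 in denervated limb (adjusted p = 0.15) and by -1.02 ± 0.74 in innervated limb (adjusted p = 0.34). The innervated limb value ran between -1.90 and -0.276 with single arrays left out, and was called without replicate 1 of day 1 (-1.90, adjusted p = 0.043). The change in flank exceeded that in innervated limb by 5.02 ± 1.05 (adjusted p = 0.0033), the one member of 6 called in that test of the difference, in which 4.87% of probe sets were called. PTX3 and ABI3BP were also called in it with array weights (3.97, adjusted p = 0.047, and 2.46, adjusted p = 0.032) and without innervated limb replicate 1 of day 1 (4.21, adjusted p = 0.025, and 2.85, adjusted p = 0.0099). Against denervated limb the excess was 2.55 ± 1.05 (adjusted p = 0.22), with no member called by limma and 2.36% of probe sets called. At an unadjusted p under 0.05 there were 1 of 6 members, against 3030 of 20035 probe sets.

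PTX3 stayed low in flank, at 8.02, 7.10, 6.28 and 6.98 on day 7, a difference from day 1 of 1.28 ± 0.86 (adjusted p = 0.26) and from day 0 of -4.69 ± 0.86. ABI3BP was at 4.54, 4.15, 4.09 and 4.43, within the range of its day 1 values, and differed from day 0 by -4.65 ± 0.55. In innervated limb PTX3 differed by -2.01 ± 0.86 between days 1 and 7 (adjusted p = 0.077). This PTX3 difference was called with array weights (adjusted p = 0.022) and without replicate 1 of day 1 (0.008) or of day 7 (0.026). ABI3BP fell by 2.31 ± 0.55 in innervated limb between the same days (adjusted p = 0.0012). Its day 7 level there was 4.69, 3.81, 4.52 and 4.39, near that of flank. Both levels lay below the array medians of 5.61 to 5.72, so a difference between them may have gone undetected. Flank and innervated limb then differed by -0.30 ± 0.86 for PTX3 (adjusted p = 0.91), -0.05 ± 0.55 for ABI3BP (adjusted p = 0.98) and 1.70 ± 0.74 for MGP (adjusted p = 0.17). The dermal list rose with MGP in flank, with 17 of 31 genes higher and 2 lower on day 7 than on day 1, at a median of 1.16. COL5A1 rose by 2.39 ± 0.30, COL3A1 by 1.80 ± 0.23, MFAP2 by 1.36 ± 0.18 and SPARC by 1.16 ± 0.19. In this comparison 37.0% of all probe sets were called, and 3 of the 6 members were: MGP higher, and PEBP4 and PTGES lower.

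Across arrays, PTX3, ABI3BP and MGP moved together within the groups. The test used the 36 arrays taken after injury, since the day 0 arrays chose the genes, and each group's mean was subtracted. PTX3 and MGP correlated with Pearson's r = 0.870 and Spearman's rho = 0.830. PTX3 and ABI3BP had r = 0.766 (rho = 0.682) and ABI3BP and MGP r = 0.697 (rho = 0.610). With the mean of the 31 other dermal genes, MGP had r = 0.883 (rho = 0.864), PTX3 r = 0.878 (rho = 0.861) and ABI3BP r = 0.763 (rho = 0.525). The adjusted permutation p of these 6 relations was at most 0.0040 for r and at most 0.040 for rho, from 100000 permutations within groups and adjusted over the 27 relations computed. Without the 2 arrays farthest from the median of the first-named gene or of the list mean, the 6 values of r were between 0.538 and 0.854. Muscle signal was related to ABI3BP by rho (0.597, adjusted permutation p = 0.0024) and not by r (0.505, adjusted permutation p = 0.17, and 0.561 without the 2 farthest arrays). The other 20 relations had adjusted permutation p of 0.19 or more for r and 0.12 or more for rho. With the dermal list CAPSL gave r = -0.023, PEBP4 r = 0.049 and PTGES r = 0.010 after injury. Over all 44 arrays these 3 values, as a description, were 0.366, 0.397 and 0.417. After injury CAPSL and PEBP4 were low and varied little within groups. Their group SD was 0.045 to 0.611 and 0.112 to 0.314, against 0.715 to 1.973 for PTX3. PTGES, at higher levels, also varied little within groups, with an SD of 0.192 to 0.579. An r near 0 after injury therefore says little about CAPSL, PEBP4 and PTGES. Each pair of values comes from 1 RNA extract and 1 array.

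**Figure D3:**
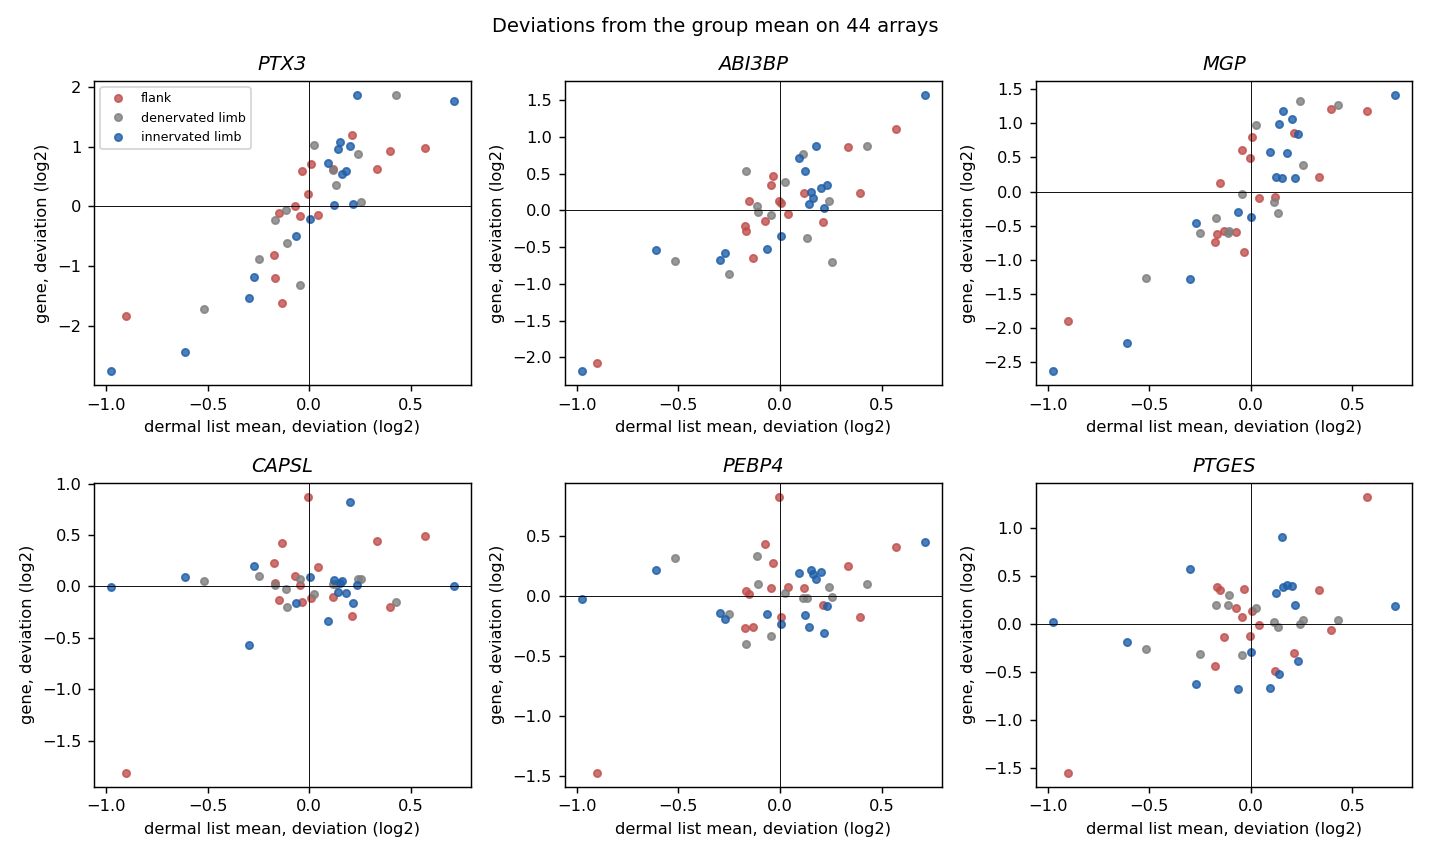
Deviation of each gene from its group mean (vertical axis, log2) against the deviation of the mean of 31 other dermal matrix genes (horizontal axis, log2) on 44 arrays, with flank in red, denervated limb in grey and innervated limb in blue. PTX3, ABI3BP and MGP rise with the dermal list (r = 0.872, 0.830 and 0.883 over all 44 arrays). CAPSL, PEBP4 and PTGES show a weaker slope (r = 0.366, 0.397 and 0.417), with uninjured flank replicate 1 at the lower left. Without the 2 arrays farthest from the median of the list mean, these 3 values were 0.083, 0.167 and 0.295. CAPSL, PEBP4 and PTGES vary little within groups after injury, so a slope could hardly show there.

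CAPSL and PEBP4 had a different course: they were high in uninjured flank and near the limb level at every later time. CAPSL in flank measured 5.07, 4.66, 4.36 and 4.49 on day 1, and its values on days 3 and 7 lay between 4.32 and 4.75. All 40 arrays other than the uninjured flank lay between 4.16 and 5.55, so the day 0 flank mean of 8.18 ± 1.23 (SD) stood alone, and the other 10 groups overlapped with their neighbours in order. After injury CAPSL differed between flank and innervated limb by 0.04 ± 0.30 on day 1, -0.29 ± 0.30 on day 3 and 0.11 ± 0.30 on day 7 (adjusted p = 0.96, 0.68 and 0.91). None of these was called, and the groups overlapped on each day. All these arrays lay below the array medians of 5.61 to 5.72 for CAPSL, so a difference may have gone undetected. The SE of 0.30 comes from the fit over all arrays, uninjured flank included. After injury the SD within groups was 0.045 to 0.611. In denervated limb CAPSL differed by -0.382 ± 0.298 between days 1 and 7 (limma, adjusted p = 0.381), without overlap. That difference was called under 1 of the 10 alternatives, the arrays compared alone (adjusted p = 0.0066). The second probe set differed by -0.13 ± 0.153 there (limma, adjusted p = 0.593).

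PEBP4 in flank measured 5.43, 5.75, 5.61 and 5.96 on day 1, then 4.94, 5.18, 5.16 and 5.19 on day 3 and 4.65, 5.26, 4.56 and 4.84 on day 7. It was thus 2.77 ± 0.26 below day 0 on day 1 and fell further, by 0.86 ± 0.26 between days 1 and 7 (adjusted p = 0.0087). In innervated limb it measured 5.58, 5.35, 6.06 and 5.45 on day 1 and 4.47, 4.77, 4.73 and 4.24 on day 7, a fall of 1.06 ± 0.26 (adjusted p = 0.0017). In denervated limb the difference between these days was -0.65 ± 0.26 (adjusted p = 0.060). That difference was called with array weights (adjusted p = 0.032), with the arrays compared alone (0.024), without the dimmest probe sets (0.049), without the day 0 arrays (0.0035) and without denervated limb replicate 3 of day 1 (0.042) or of day 7 (0.045). The second probe set of PEBP4 gave no called fall between days 1 and 7. It differed by -0.31 ± 0.21 in flank, -0.41 ± 0.21 in innervated limb and -0.26 ± 0.21 in denervated limb (limma, adjusted p = 0.26, 0.15 and 0.40). The called falls thus rest on 1 of 2 probe sets, at group means near or below the array medians. On the brighter probe set, the change in flank differed from that in innervated limb by 0.20 ± 0.37 (adjusted p = 0.84). Flank and innervated limb differed by 0.08, 0.23 and 0.28 on days 1, 3 and 7, each ± 0.26, with adjusted p of 0.65 or more.

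PEBP1, measured beside PEBP4, was lower in flank than in limb at day 0 (-1.09). The PEBP and RAF-MEK-ERK list without PEBP4 had 10 genes measured, PEBP1 among them. Of these 10, 2 were called lower in flank at day 0 and 0 higher, where 4.35% of all probe sets were called in either direction. Of 16 motile cilia genes, a list that CAPSL was put in for its relative CAPS, 0 were called by limma between the regions at day 0, on day 1 or on day 7 (6, 1 and 3 at an unadjusted p under 0.05), and 8 were lower in flank than in innervated limb on day 3, where 6.24% of probe sets were called. That count rests on innervated limb replicates 2 and 3, where the list mean was 0.815 and 0.464, against -0.153 to -0.079 in flank and 0.042 and -0.029 in innervated limb replicates 1 and 4. It was 0 without replicate 2 and 1 without replicate 3. Among the 8 were SPAG6 (-0.63 ± 0.16) and RSPH9 (-0.83 ± 0.21).

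PTGES was high in all 3 series on day 1. It measured 8.95, 9.16, 8.78 and 9.45 in flank on day 1, against 8.72, 8.18, 8.89 and 9.02 in innervated limb, a difference of 0.38 ± 0.36 (adjusted p = 0.64). Denervated limb measured 8.82, 9.05, 8.53 and 9.02, and flank differed from it by 0.23 ± 0.36 (adjusted p = 0.83). Set against day 0, PTGES differed by -0.79 ± 0.36 in flank, 2.34 ± 0.36 in denervated limb and 2.19 ± 0.36 in innervated limb. Both limb series share the 4 uninjured limb arrays. As a description, the regional gap was 3.36 at day 0 and 0.38 on day 1, and the limb differed more from day 0 than flank did. The choice of genes favours a high flank and a low limb value at day 0, so which region closed the gap was not tested.

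PTGES had fallen in all 3 series by day 7. Between days 1 and 7 it differed by -2.02 ± 0.36 in flank (adjusted p = 2.4e-05), by -1.35 ± 0.36 in denervated limb (adjusted p = 0.0037) and by -2.47 ± 0.36 in innervated limb (adjusted p = 1.3e-06), with no overlap between the days in any series. It was the one member of 6 called in denervated limb, where 29.7% of probe sets were called, and 1 of 3 called in innervated limb, with ABI3BP and PEBP4, where 29.6% were. The fall differed between flank and innervated limb by 0.46 ± 0.51 (adjusted p = 0.70). In denervated limb PTGES was lowest on day 3, at a mean of 6.90, and every day 7 array lay above every day 3 array. That difference, 0.605 ± 0.363, was not called (limma, adjusted p = 0.41).

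On day 3 PTGES was higher in flank than in innervated limb, the one member of 6 called there, where 6.24% of probe sets were. It measured 8.15, 7.53, 8.40 and 8.01 in flank, against 6.19, 7.25, 6.56 and 7.42 in innervated limb, a difference of 1.17 ± 0.36 (adjusted p = 0.046). The groups did not overlap. The call lay close to the threshold. It was lost without innervated limb replicate 1, 2 or 3 (adjusted p = 0.18, 0.052 and 0.13) and without flank replicate 1, 3 or 4 (adjusted p = 0.10, 0.14 and 0.080). The call was also lost when the 3 arrays richest in muscle RNA were left out (adjusted p = 0.055). None of those arrays is in this comparison, so the difference stayed at 1.17 and only the estimated spread and the adjustment changed. Denervated limb measured 7.20, 6.58, 6.92 and 6.90, also below every flank array, with a difference of 1.12 ± 0.36 (adjusted p = 0.057). The difference of PTGES was called under 6 of the 10 alternatives, among them quantile normalization (adjusted p = 0.043), array weights (0.014) and the fit without the day 0 arrays (0.0025). No member was called by limma against the denervated limb on day 3 in the fit over all arrays (6.33% of probe sets were). At an unadjusted p under 0.05 there were 3 of 6 members, against 3774 of 20035 probe sets. PTX3 was called there with the arrays compared alone (adjusted p = 0.025) and without the dimmest probe sets (0.049).

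On day 7 the innervated limb had the lowest PTGES. Flank measured 7.00, 7.23, 6.63 and 7.42, denervated limb 7.54, 7.54, 7.24 and 7.70, and innervated limb 5.84, 6.04, 6.61 and 6.43. Flank exceeded innervated limb in every pair of arrays, by 0.84 ± 0.36 (adjusted p = 0.16), and no member was called by limma between them, where 9.32% of probe sets were called. At an unadjusted p under 0.05 there were 2 of 6 members, against 4120 of 20035 probe sets. Denervated limb exceeded innervated limb, again with no overlap, by 1.27 ± 0.36 (adjusted p = 0.060). With the spread of the arrays compared alone, the adjusted p was 0.037 for flank and 0.020 for denervated limb. The denervated limb difference was also called with array weights (adjusted p = 0.013), without the dimmest probe sets (0.049), with the replicate block (0.040) and without the day 0 arrays (0.0036). Flank and denervated limb differed by -0.44 ± 0.36 (adjusted p = 0.60), with 7.2% of probe sets called in that comparison and no member by limma. At an unadjusted p under 0.05 there were 0 of 6 members, against 3711 of 20035 probe sets.

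Between denervated and innervated limb, no member passed the threshold in the fit over all arrays, and PTGES on day 7 did so under 5 alternatives. By limma 0 of 6 members were called on days 1, 3 and 7, when 0.02%, 0.265% and 1.7% of probe sets were called. At an unadjusted p under 0.05 there were 1, 0 and 1 members, against 1584, 1329 and 2285 of 20035 probe sets. On day 1 the differences were between -1.48 (MGP) and 0.15 (PTGES). On day 3 they were between -0.28 (MGP) and 0.04 (PTGES). On day 7 they were between -0.07 (CAPSL) and 1.27 (PTGES), and PTGES alone did not overlap. The SE of these differences was between 0.26 for PEBP4 and 0.86 for PTX3.

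Of 17 other genes of prostaglandin and eicosanoid metabolism, 0 were called by limma between flank and limb at day 0, with 4 at an unadjusted p under 0.05. PTGS2, the inducible cyclooxygenase that supplies the substrate of PTGES, averaged between 3.6 and 3.8 in all 11 groups. That is below the array medians of 5.61 to 5.72, so a change in PTGS2 may have gone undetected. The related enzymes PTGES2 and PTGES3 averaged 8.4 and 5.7 in flank at day 0, and 8.3 and 5.8 in limb. On day 1, PTGIS, the prostacyclin synthase, and LTA4H, an enzyme of leukotriene synthesis, were lower in flank than in innervated limb. On day 3 HPGD, which inactivates prostaglandins, was lower in flank than in innervated limb, with a difference of -0.87. On day 7 PTGR2, a prostaglandin reductase, was higher in flank by 0.51. Of all probe sets, 4.93%, 6.24% and 9.32% were called between flank and innervated limb on days 1, 3 and 7. Single called genes of a list of 17 are therefore no result about the pathway.

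Of 19 other genes for pentraxins, complement and soluble defence proteins, 0 were called by limma between flank and limb at day 0, with 3 at an unadjusted p under 0.05, and 2 were lower in flank than in innervated limb on day 1, C7 (-1.94), a component of the membrane attack complex, and C1QC. TNFAIP6, which binds PTX3 in mammals, averaged 8.4 in flank and 7.1 in limb at day 0. C3, the central complement component, was higher in flank than in innervated limb on day 3, by 1.63. On day 7 CLU, clusterin, was lower in flank (-1.69) and CD59, an inhibitor of complement lysis, was higher (1.52). Around MGP, GGCX, the carboxylase that MGP needs, was the one gene of 7 called higher in flank at day 0 (0.67). BMP2, a ligand that MGP binds in mammals, was lower in flank than in innervated limb on days 1, 3 and 7, by -1.20, -1.27 and -1.23. Of all probe sets, 4.35%, 4.93%, 6.24% and 9.32% were called between these regions at day 0 and on days 1, 3 and 7. The small counts of the defence list changed with single arrays left out, and are no result about the list as a whole.

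The genes whose pattern over the 11 group means was most like that of each member are given as a description, with n = 11 means that share arrays. PTX3 was most like CLEC3B (r = 0.937), GRIK2 (0.900) and OGN (0.898). CLEC3B, tetranectin, averaged 9.68 in flank and 7.99 in limb at day 0, and 5.42 in flank on day 1, against 8.43 in innervated limb. ABI3BP was most like PCOLCE2 (0.970), an enhancer of procollagen processing, then ADAMTS13 (0.962) and GNG13 (0.960). MGP was most like OLFML2B (0.913), COL6A2 and LUM (both 0.912). COL6A2 averaged 8.17, 7.86 and 10.21 in flank on days 1, 3 and 7, lowest on day 3, whereas MGP was lowest on day 1.

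CAPSL was most like CARTPT (0.987), a neuropeptide precursor, GABRG1 (0.984), a GABA receptor subunit, and CRYBA2 (0.977), a crystallin. PEBP4 shared CRYBA2 (0.976) and CARTPT (0.964) with it and was also like ELMOD1 (0.971). CARTPT averaged 6.48 ± 1.80 in uninjured flank and 4.04 ± 0.14 in uninjured limb (SD, n = 4), and between 3.89 and 4.26 in the other 9 groups. CRYBA2 averaged 6.87 ± 0.77 in uninjured flank and 4.57 ± 0.30 in uninjured limb. PTGES was most like PDLIM5 (0.921), DDX54 (0.919) and HYOU1 (0.917), a chaperone of the endoplasmic reticulum. HYOU1 averaged 8.59 in flank and 6.56 in limb at day 0, and on day 1 it averaged 8.28 in flank, 8.20 in denervated limb and 7.98 in innervated limb. With group means subtracted, r with PTGES over the 44 arrays was 0.465 for PDLIM5, 0.052 for DDX54 and 0.035 for HYOU1. It was 0.834 to 0.917 for the genes like PTX3 and MGP, and 0.17 to 0.708 for those like ABI3BP, CAPSL and PEBP4.

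**Figure D4:**
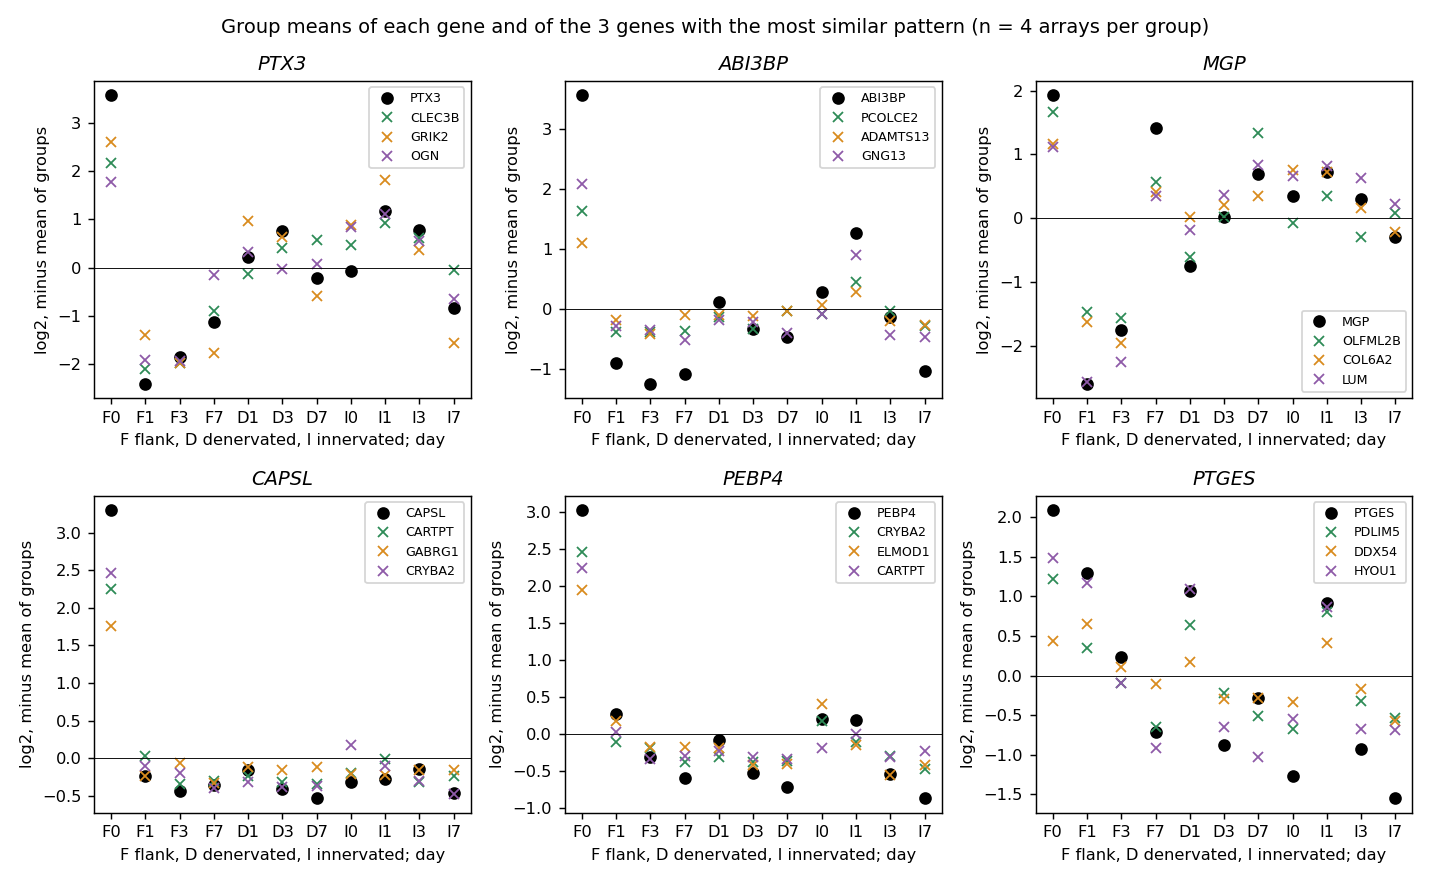
Group means of each gene (black circles) and of the 3 genes with the most similar pattern (coloured crosses), as log2 expression minus the mean of the 11 groups (vertical axis), for flank (F), denervated limb (D) and innervated limb (I) by day. The likeness of CAPSL and PEBP4 to CARTPT and CRYBA2 rests on the uninjured flank, whereas HYOU1 is high with PTGES on day 1 in all 3 series. All these genes were picked for their likeness over the group means.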

How the data were processed

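Total RNA of 44 samples was hybridised as biotin-labelled cRNA to an Affymetrix array. The deposited values are log2 expression per probe set. RMA and limma are named in the submitters' processing notes, and their versions are not given in the sources used here. The authors' values lay between 2.41 and 15.04 and were used without further normalization. Of 20080 probe sets, 45 controls were left out. A platform annotation, which can be old, gave 1 symbol to 10951 probe sets and left 9084 unnamed here.

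Groups came from the sample labels. limma 3.58.1 in R 4.3.3 fitted 1 mean per group, with empirical Bayes moderation, 33 residual degrees of freedom and two-sided tests. P-values measure the spread between animals as labelled. Comparisons that use the day 0 arrays have no p for the members, and correlations were tested on the 36 arrays after injury. The members and the 16 gene lists were chosen with earlier results of these data known. Genes named are all members, per member the 3 other genes of highest correlation over group means with a range of at least 1 log2 unit, up to 4 genes per list of smallest adjusted p in a comparison, and any gene of the prostaglandin and pentraxin lists. Members were left out of their lists. The number of arrays limits the precision. The procedure was tested on simulated data. Sequences and batches were not analysed here. Alternatives were median centring, quantile normalization, array weights, a trended robust prior, the arrays compared alone, leaving out the dimmest 25% of probe sets, the replicate number as a block, leaving out 3 muscle-rich arrays, the mean of a gene's probe sets, and each array left out in turn. A fit without the day 0 arrays, that limit on correlations and list counts with each array left out were added after seeing the data.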

Additional observations from a re-analysis of the deposited data

Results flagged for a closer look

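CAPSL in uninjured flank replicate 1 measured 6.36, apart from the other 3 arrays of its group at 8.62 to 9.05. PEBP4 in flank replicate 1 on day 3 measured 4.94, apart from the others at 5.16 to 5.19. These were 2 of 66 groups examined for an array far from the rest, and chance gives about 1 in 20. The change of MGP between days 1 and 7 differed between flank and innervated limb by 5.02 ± 1.05 (limma, adjusted p = 0.0033).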

How the results depend on the processing

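A total of 90 differences of members and 15 counts of calls were recomputed under 9 alternatives and again with each array left out, and 84 of the differences also without the day 0 arrays, a fit added after seeing the data. An alternative constant added before taking logarithms was not applicable, as the deposited values are logarithms already. Median centring and the trended robust prior changed no call of a member and no count by over 1.5 times. Whether the replicate number pairs the samples was not settled. All 4 same-numbered correlations were over 0.1 in 1 of 55 pairs of groups (range over all pairs -0.34 to 0.46). That pair was innervated limb at day 0 and on day 7 (0.227 to 0.405). Of 44 arrays, 21 lay closest to their own number, more than the 1 in 4 that random numbering would give. With the replicate block, PTGES was called between flank and denervated limb on day 3 (1.12, adjusted p = 0.036) and between denervated and innervated limb on day 7 (1.27, adjusted p = 0.040), and no other member's call changed. Of the 894 differences of members under these 10 alternatives, 849 kept direction and side of the threshold, 31 passed it newly, 5 lost it, 8 changed sign and 1 moved. With single arrays left out the numbers were 762, 9, 9 and 36 of 816, and 0 moved. The reversals below are all of differences not called, and the cause of the changes was not tested.

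For flank minus innervated limb, using the arrays compared alone ended the day 1 calls of PTX3 (-3.58), ABI3BP (-2.17) and MGP (-3.32), and made calls of PTX3 (-2.64), ABI3BP (-1.11) and MGP (-2.06) on day 3 and of PTGES (0.84) on day 7. Array weights made calls of PTX3 (-2.73) and MGP (-2.05) on day 3 and of MGP (1.88) and PTGES (0.884) on day 7, where ABI3BP turned to 0.0216. Without the dimmest 25% of probe sets PTX3 was called on day 3 (-2.64). When the 3 arrays richest in muscle RNA were left out, ABI3BP on day 1 (-1.99) and PTGES on day 3 (1.17) were no longer called. Of those arrays only innervated limb replicate 4 of day 1 was in the ABI3BP comparison, and none was in that of PTGES. Without the day 0 arrays PTGES was called on day 7 (0.84, adjusted p = 0.018). The lists have small counts: with single arrays left out, those of flank minus innervated limb ran between 1 and 2 lower prostaglandin genes on day 1 and 0 and 1 on day 3, between 0 and 2 lower defence genes on day 1, and between 0 and 1 higher defence gene on days 3 and 7. With the mean of a gene's probe sets, CAPSL at day 0 was 1.80, and on day 1 CAPSL turned to -0.085 and PEBP4 to -0.00125. That mean also turned CAPSL to 0.0425 for flank minus denervated limb on day 3 and to -0.0413 for denervated minus innervated limb on day 1, and PEBP4 to -0.0663 for denervated minus innervated limb on day 3. Array weights turned PEBP4 there to -0.0043, and CAPSL in the difference of changes between flank and innervated limb to -0.0335.

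With single arrays left out, flank minus innervated limb ran between -4.50 and -3.00 for PTX3 on day 1, -2.90 and -1.65 for ABI3BP, -0.0967 and 0.140 for CAPSL and -0.0133 and 0.227 for PEBP4. On day 3 it ran between -3.15 and -2.24 for PTX3 and 0.946 and 1.36 for PTGES, and on day 7 between -1.11 and 0.322 for PTX3 and -0.231 and 0.0625 for ABI3BP. Flank minus denervated limb ran between -0.222 and 0.015 for CAPSL on day 1, -0.095 and 0.0108 on day 3, and -0.0192 and 0.231 for PEBP4 on day 7. Denervated minus innervated limb ran between -0.0217 and 0.261 for PTGES on day 1 and -0.204 and 1.23 for PTX3 on day 7. On day 3 it ran between -0.523 and 0.324 for PTX3, -0.448 and 0.095 for ABI3BP, -0.729 and 0.0708 for MGP, -0.448 and 0.0158 for CAPSL, -0.0733 and 0.070 for PEBP4 and -0.177 and 0.233 for PTGES. Day 7 minus day 1 ran between -0.220 and 0.0167 for CAPSL in flank and -1.06 and 0.133 for PTX3 in denervated limb, and the difference of this change between flank and innervated limb between -0.0275 and 0.209 for CAPSL.

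Counts of probe sets called for flank minus innervated limb, 872 at day 0, 987 on day 1, 1250 on day 3 and 1868 on day 7, moved at day 0 to 136 with the arrays compared alone (563 to 927 with single arrays left out), on day 1 to 124 with those arrays and 652 with array weights (612 to 1145), and with array weights to 2209 on day 3 and 2885 on day 7. For flank minus denervated limb they moved to 179 on day 1 with the arrays compared alone, against 467 (273 to 573), and on day 7 to between 932 and 1296 with single arrays left out, against 1442. For denervated minus innervated limb the 4 calls of day 1 became 17 after quantile normalization, 0 with the arrays compared alone and 11 without the muscle-rich arrays (0 to 30). The 53 of day 3 became 11 with the arrays compared alone and 18 without the muscle-rich arrays (28 to 65), and the 340 of day 7 became 776 with array weights (72 to 326). The 976 and 472 calls for differences of changes became 549 (650 to 1042) and 304 (310 to 560) with the arrays compared alone.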

Other observations

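Of the list taken with PEBP4 because of its family, 2 of 10 genes, both targets of ERK signalling, were called between flank and innervated limb after injury. ETV4 (-2.03 ± 0.18 and -1.87 ± 0.18) and SPRY1 (-0.61 ± 0.18 and -1.21 ± 0.18) were lower in flank than in innervated limb on days 3 and 7, with 0 genes of the list higher, where 6.24% and 9.32% of all probe sets were called. With single arrays left out the count of lower genes was 1 to 3 on day 3 and 2 on day 7. Skeletal muscle genes, listed as markers of another tissue, fell between days 1 and 7 in both limb series. These were 11 of 15 in denervated limb and 12 of 15 in innervated limb, where 29.7% and 29.6% of all probe sets were called. In flank 0 of 15 were called by limma, where 37.0% of all probe sets were, and 1 had an unadjusted p under 0.05. The mean of the muscle list was nevertheless lower in flank on day 7 (-0.616) than on day 1 (0.798). It was -2.235 against 1.943 in denervated limb and -2.164 against 1.858 in innervated limb. The difference of these changes between flank and innervated limb was called by limma for 0 of the 15, with 5 at an unadjusted p under 0.05.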
